A study of Mus musculus with 4 samples.

Results

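Retinoid binding and metabolism genes were followed in mouse skin treated with MC903 or with vehicle. The set was listed by gene name under a rule that uses no measured value, although earlier results of these data were known when it was drawn up. The genes were listed because the retinoid X receptors are partners of the vitamin D receptor, the receptor that MC903 activates. It lists 9 genes, namely the binding proteins Crabp1, Crabp2 and Rbp4, the retinol dehydrogenase Dhrs9, the retinal dehydrogenases Aldh1a1, Aldh1a2 and Aldh1a3, and the retinoic acid hydroxylases Cyp26a1 and Cyp26b1. Of these, 8 were measured, with 10 probe sets among the 18193 genes on the arrays. Dhrs9 was not analysed here because the array annotation used assigns no probe set to it. A probe set is the group of short probes that together report 1 transcript, and its signal is a linear, scaled brightness.

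Female wild type BALB/c mice gave all samples. They had been sensitised on the ear skin with ovalbumin (OVA) together with MC903, and were then given OVA by mouth, so earlier MC903 is shared by both groups. Between the first and the later oral challenge the MC903 group (2 arrays) had calcipotriol (MC903), a vitamin D analogue known to inflame skin, put on the skin, while the Control group (2 arrays) had ethanol (EtOH). RNA came from whole treated skin after the later challenge, and the labels do not say whether samples came from separate animals, so the p-values reflect only how these samples scatter, part of which may be technical. The labels give no age, dose or time for either group.

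Retinol travels in blood bound to RBP4 and is stored in cells as esters. Retinol dehydrogenases turn it into retinal, the ALDH1A enzymes oxidise retinal to retinoic acid, and CYP26 enzymes break retinoic acid down. Retinoic acid in the cell is carried by the CRABP proteins and acts through retinoic acid receptors paired with retinoid X receptors. In skin it is known for its control of keratinocyte growth and differentiation, of the hair cycle and of sebaceous glands.

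The 4 arrays had median signals of 90.2 and 99.6 in the MC903 group and 109.2 and 99.7 in the Control group. A mean that leaves out 2% of probe sets at either end came to 500.003 on each array. Signals of the 8 genes lay above those of the bacterial TrpnX controls (1.55 to 24.0), which serve as a guide to background, on every array. Keratinocyte genes were bright, as fits skin, Krt14 having signals of 39813 and 36200 in MC903 and 31849 and 30609 in Control. MC903 exposure was visible in Cyp24a1, the vitamin D hydroxylase induced by the vitamin D receptor, with signals of 17297 and 10385 in MC903 and 12.65 and 40.8 in Control. Differences below are MC903 minus Control in log2(signal + 16), where the added constant shrinks the differences of dim genes.

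Among the 8 genes, Aldh1a1 was lower and Crabp2 higher in each MC903 array than in either Control array, Cyp26b1 was slightly lower, and Aldh1a3 was several-fold higher in 1 MC903 array only. None of the 8 passed the test over all genes. Limma with a constant prior variance called 0 of the 8 at an adjusted p below 0.05, and 0% of all genes (0 of 18193), the smallest adjusted p of any gene being 0.0561. At an unadjusted p below 0.05 it had 1 of the 8, Aldh1a1, against 15.2% of all genes. With a prior variance that follows the signal, limma called 0 of the 8 and 0.923% of all genes. Without MC903 replicate 2, where the single MC903 array takes its spread from Control, that fit called 2 of the 8 (Crabp2 and Aldh1a3, both higher) and 5.2% of all genes. The groups did not overlap for 1 of the 8 upward and for 2 downward, against 21.6% of all genes upward and 28.2% downward, so the count of separated genes was no larger than that over the whole array. The median difference of the 8 was -0.34 and that of all genes -0.04. With 2 arrays in each group, the smallest two-sided p that an exact permutation test allows is 0.333.

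**Figure D1:**
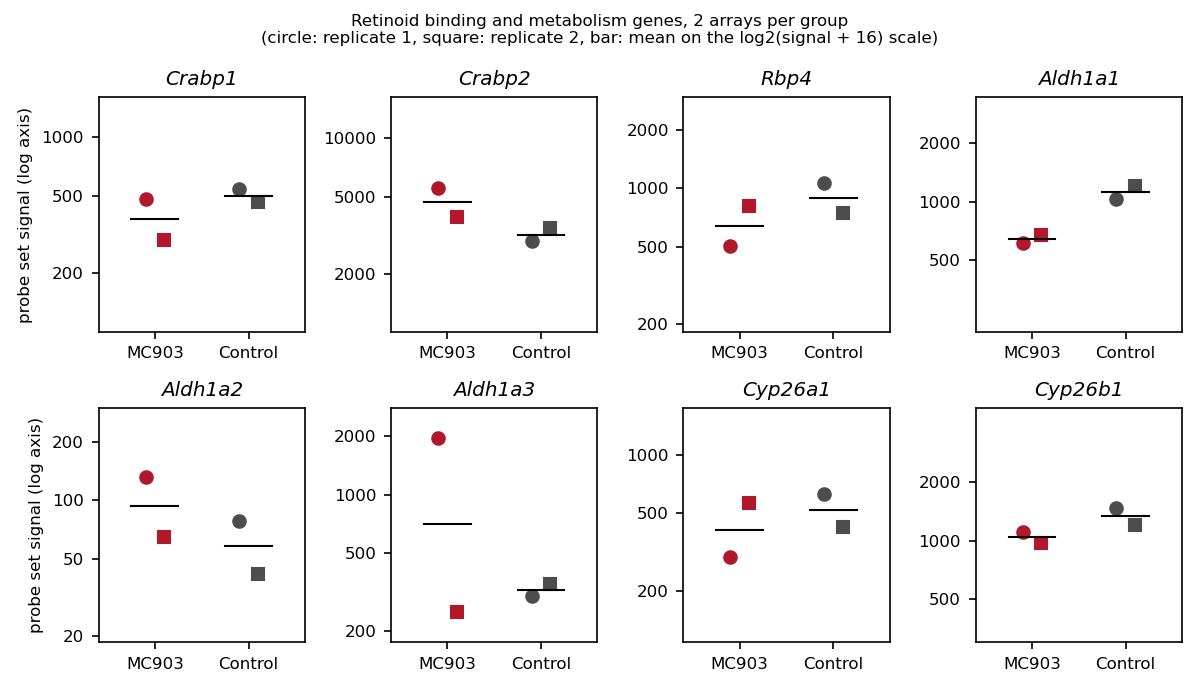
Signals of the 8 measured genes on each array, on log axes that span the same ratio in every panel, with MC903 left and Control right (circles replicate 1, squares replicate 2, bars group means on the log2(signal + 16) scale, n = 2 per group). Aldh1a1 is lower in both MC903 arrays, at 611 and 675 against 1039 and 1214 in Control, and Aldh1a3 is high in MC903 replicate 1 alone, at 1951.

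The intracellular binding proteins had estimates of opposite sign. Crabp2, which carries retinoic acid to its nuclear receptors, had signals of 5550.0 and 3923 in MC903, against 2951 and 3448 in Control. Both MC903 arrays stood above both Control arrays, the nearest values being 3923 in MC903 and 3448 in Control. The difference was 0.55 ± 0.24 (SE, n = 2 per group), with a 95% interval of -0.10 to 1.19 and a limma adjusted p of 0.38. By array, MC903 replicate 1 lay 0.80 and MC903 replicate 2 lay 0.30 above the Control mean. Crabp2 is made in the epidermis, and all 8 measured markers of activated keratinocytes stood higher in each MC903 array. They summed to 228521 and 125047 in MC903 and 23538 and 25796 in Control. Replicate 1 was thus the higher MC903 array for both the list and Crabp2. Of that list S100a8 (36943 and 5891 in MC903) and S100a9 (26482 and 4081), also in the neutrophil list below, differed most between the MC903 arrays. Sprr1b alone was not higher in replicate 1, at 23284 and 23700 in MC903. Of 9 suprabasal keratinocyte markers, 5 were higher in each MC903 array (21.6% of all genes). The sum of that list was larger in replicate 2, at 211874 and 242759 in MC903 and 191598 and 175344 in Control. The part of both lists in the Crabp2 values was not tested.

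Crabp1, the close relative of Crabp2 that holds retinoic acid in the cytoplasm, had signals of 484 and 298 in MC903, against 542 and 464 in Control. MC903 replicate 1 fell between the Control arrays and MC903 replicate 2 below both, so the groups overlapped. Its difference was -0.38 ± 0.28 (SE, n = 2 per group; limma adjusted p = 0.562), and it was -0.05 without MC903 replicate 2 and -0.72 without MC903 replicate 1. The 95% intervals of Crabp1 and Crabp2 both held 0, and the difference between them was not tested. Crabp1 is known in dermal papilla cells and fibroblasts. Of 15 dermal papilla markers measured, 3 were higher and 6 lower in each MC903 array than in either Control array. Over all genes the shares were 21.6% and 28.2%. The list summed to 7676 and 9033 in MC903 and 17831 and 12455 in Control. Wif1 alone supplied much of that sum, with 2823 and 3791 in MC903 and 11161 and 6793 in Control. Of 11 fibroblast markers measured, 1 was higher and 5 were lower, with sums of 85189 and 80191 in MC903 and 98980 and 89616 in Control. Their part in the Crabp1 values was not tested.

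Rbp4, the carrier of retinol in plasma, had signals of 503 and 809 in MC903, against 1068 and 749 in Control. Only MC903 replicate 1 was below both Control arrays, and the groups overlapped. The difference was -0.48 ± 0.32 (SE, n = 2 per group; limma adjusted p = 0.535), with a 95% interval of -1.35 to 0.39. It was -0.14 without MC903 replicate 1 and -0.81 without MC903 replicate 2, and -0.23 without Control replicate 1 and -0.73 without Control replicate 2. Rbp4 is also made by fat cells, so adipocyte markers are given beside it. Of 8 measured, 5 were higher in each MC903 array than in either Control array (21.6% of all genes). Summed over that list, the signal was 21677 and 31737 in MC903 and 17805 and 16464 in Control. Replicate 2 was the higher MC903 array for both the list and Rbp4. Fabp4 supplied most of that sum, with 14495 and 19012 in MC903 and 10854 and 9703 in Control. The part of the adipocyte list in the Rbp4 values was not tested.

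The enzymes that make retinoic acid did not share a direction. Aldh1a1, which oxidises retinal to retinoic acid and is also active on other aldehydes, had signals of 611 and 675 in MC903, against 1039 and 1214 in Control. The groups were well apart, each MC903 array lying 0.86 or 0.72 below the Control mean. The difference was -0.79 ± 0.17 (SE, n = 2 per group), a Control level 1.73 times that in MC903 on that scale, with a 95% interval of -1.26 to -0.32. Limma's p was 0.00869 before adjustment and 0.214 after it with the constant prior, or 0.0954 after it when the prior followed the signal, so Aldh1a1 was not called. Its absolute difference was larger than that of 89.8% of all genes.

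Marker genes of the hair shaft and of pigment cells, and most of those of the outer root sheath and bulge, were lower alongside Aldh1a1. All 13 measured hair shaft markers, 7 of 10 outer root sheath and bulge markers and all 8 melanocyte markers were lower in each MC903 array than in either Control array. Over all genes that share was 28.2%, and among sebocyte markers it was 2 of 9. The groups overlapped for the bulge list's Cd34 (-0.02), Nfatc1 (0.0045) and Krt75 (-0.73). The summed signal of the hair shaft list was 2801 and 1938 in MC903 and 28007 and 49065 in Control. For the outer root sheath and bulge list the sums were 23839 and 21994 in MC903 and 32730 and 33340 in Control. Krt15, also a marker of basal keratinocytes, supplied most of them, with 16293 and 15884 in MC903 and 23458 and 24187 in Control. The melanocyte list summed to 4424 and 5267 in MC903 and 11615 and 8784 in Control. The part of these lists in the Aldh1a1 result was not tested. In whole skin, fewer cells of a type and less RNA per cell cannot be told apart.

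Aldh1a3, the retinal dehydrogenase of several surface epithelia, had signals of 1951 and 249 in MC903, against 301 and 349 in Control. MC903 replicate 1 was thus far above both Control arrays and MC903 replicate 2 below both. The difference was 1.09 ± 0.998 (SE, n = 2 per group; limma adjusted p = 0.643), with a 95% interval of -1.61 to 3.78. It was 2.53 without MC903 replicate 2 and -0.36 without MC903 replicate 1. The other 2 probe sets of Aldh1a3 were also highest in MC903 replicate 1. One had 445 and 37.6 in MC903 and 91.7 and 74.6 in Control, and the dimmest had 75.9 and 14.6 in MC903 and 36.8 and 11.6 in Control, partly within the TrpnX range. The high value of replicate 1 was therefore present on 3 of 3 probe sets, whereas replicate 2 lay below both Control arrays on 2 of them.

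The MC903 arrays also differed in the summed signals of neutrophil and macrophage markers, but little in that of T cell markers. The T cell list summed to 1733 and 1640 in MC903 and 888 and 982 in Control, but its single markers were not alike. Cd8a (80.8 and 265 in MC903), Cd4 and Cd28 were higher in replicate 2. Cd3g (574 and 424 in MC903), Cd3d, Cd3e and Cd2 were higher in replicate 1. Of 7 measured neutrophil markers, 4 were higher in each MC903 array than in either Control array (21.6% of all genes). Neutrophil markers summed to 65280 in MC903 replicate 1 and 10616 in replicate 2, against 1184 and 1666 in Control, a sum that S100a8 and S100a9, which keratinocytes also make, dominate. Csf3r, the receptor for granulocyte colony-stimulating factor on neutrophils, had signals of 809 and 233 in MC903 and 108 and 135 in Control. The 10 measured macrophage markers, all higher in both MC903 arrays, summed to 61810 and 37557 in MC903 and 27278 and 25642 in Control. Among them Lyz2 ran the other way between the MC903 arrays, at 9677 in replicate 1 and 11510 in replicate 2. The part of these lists in the Aldh1a3 values was not tested. Of 9095 genes with a mean signal above the median of all genes, those with the pattern closest to Aldh1a3 over the 4 arrays were Mmp3, a matrix metalloproteinase, Car2, a carbonic anhydrase, and Cfp, the complement factor properdin. Their Euclidean distances on centred log2 values were 0.50, 0.52 and 0.53. Mmp3 had signals of 5087 and 966 in MC903 and 1233 and 1421 in Control. For Aldh1a1 the closest were Pik3ip1, Pcbp4 and Zfp61, at distances of 0.06, 0.07 and 0.07, Pik3ip1 having signals of 345 and 373 in MC903 and 572 and 710 in Control.

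Aldh1a2, a retinal dehydrogenase known in the embryo and in some dendritic cells, was the dimmest of the set relative to other genes, 32.6% of all genes having a lower mean signal. It had signals of 132 and 64.4 in MC903, against 78.4 and 41.9 in Control, and the groups overlapped. The difference was 0.56 ± 0.41 (SE, n = 2 per group; limma adjusted p = 0.562), and with 1 array left out it ran from 0.12 (MC903 replicate 1) to 0.998 (MC903 replicate 2). Beside it, 6 of 9 measured dendritic and Langerhans cell markers were higher in both MC903 arrays (21.6% of all genes). The list summed to 13372 and 13283 in MC903 and 10206 and 9930 in Control. Epcam, which other epithelial cells also make, supplied most of that sum, with 7761 and 9066 in MC903 and 6997 and 6725 in Control. The Langerhans cell marker Cd207 had 846 and 1459 in MC903 and 1184 and 1655 in Control, and its groups overlapped. Their part in the Aldh1a2 values was not tested.

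**Figure D2:**
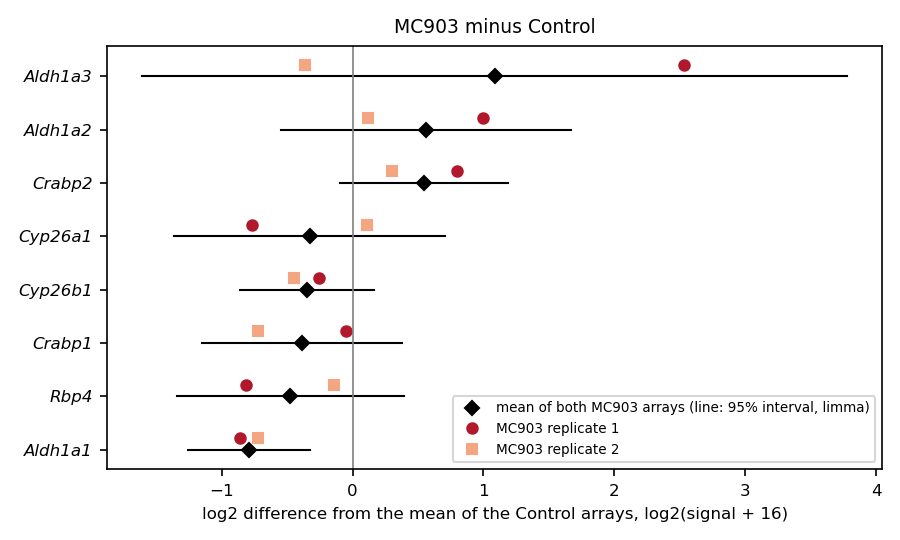
Difference of MC903 from Control for each measured gene on the log2(signal + 16) scale, as the mean of both MC903 arrays (diamonds, with limma's 95% interval, n = 2 per group) and for each MC903 array against the Control mean (circles and squares). The interval of Aldh1a1, from -1.26 to -0.32, is the only one of the 8 that leaves out 0 before adjustment, and the MC903 arrays lie on opposite sides of 0 for Aldh1a3 and Cyp26a1.

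Cyp26a1 and Cyp26b1, which hydroxylate and so inactivate retinoic acid, are shown by sequence because Cyp26a1 is a well-known target of retinoic acid receptors through a response element close to its start. The 150 bases before each start site are given 5′ to 3′ on the gene's strand, from RefSeq's GRCm38.p6 promoter table, at chr19:37697658-37697807 (plus strand) for Cyp26a1 and chr6:84593811-84593960 (minus strand) for Cyp26b1. Capitals mark the nuclear receptor hexamers named below, on either strand.
Cyp26a1: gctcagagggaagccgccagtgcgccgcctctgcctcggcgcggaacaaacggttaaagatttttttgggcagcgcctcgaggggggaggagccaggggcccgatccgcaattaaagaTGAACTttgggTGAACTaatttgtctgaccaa
Cyp26b1: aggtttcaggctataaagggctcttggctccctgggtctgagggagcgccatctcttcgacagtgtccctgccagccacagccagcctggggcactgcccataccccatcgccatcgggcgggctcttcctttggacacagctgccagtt

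The hexamer AGGTCA was searched on both strands, along with its variant AGTTCA, the variant GGGTCA and the variant GGTTCA. They were sought singly and as direct repeats of any 2 of them with 2, 3 or 5 bases between, in windows from 250 bases before to 50 bases after each start. Such a single hexamer lay in 43.7% of 32851 windows. The Cyp26a1 window holds AGTTCA repeated on the opposite strand with a spacing of 5, from 32 to 16 bases before the start, the arrangement bound by retinoic acid receptors with retinoid X receptors, which lay in 0.0974% of windows. A spacing of 3, the arrangement of the vitamin D receptor with retinoid X receptors, lay in 0.0396% of windows and in 0 of the 9 windows listed for 7 of the set's genes (all but Crabp2 and Aldh1a3). A spacing of 2 lay in 0.268% of windows and in 0 of those 9. Single hexamers lay in 1 of the 2 windows of Aldh1a1 and of Rbp4 and in that of Dhrs9. A match is a run of letters and not a measured binding site.

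Cyp26a1, whose promoter window carries that repeat, had signals of 297 and 562 in MC903, against 630 and 426 in Control. The groups overlapped, with MC903 replicate 1 lowest of all arrays and Control replicate 1 highest. The difference was -0.33 ± 0.38 (SE, n = 2 per group; limma adjusted p = 0.719), with a 95% interval of -1.36 to 0.71, and it was 0.11 without MC903 replicate 1. Cyp26b1, which has no such hexamer in its window, had signals of 1114 and 975 in MC903, against 1475 and 1207 in Control. Both MC903 arrays stood below both Control arrays by a narrow gap, and the difference was -0.35 ± 0.19 (SE, n = 2 per group; limma adjusted p = 0.456; 95% interval -0.86 to 0.16). It was -0.21 without Control replicate 1.

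Rbp4, Cyp26a1 and Aldh1a1 had their lowest signal in MC903 replicate 1, 3 of the 8 against 5919 of all 18193 genes. So did 8 of 10 skeletal muscle, 7 of 9 sebocyte and 7 of 8 melanocyte markers, the marker lists with the largest such shares. The same held for 2 of 8 adipocyte, 5 of 13 hair shaft and 3 of 10 outer root sheath and bulge markers. The muscle list summed to 12567 in MC903 replicate 1 and 47178 in replicate 2, against 59722 and 36672 in Control. The sebocyte list summed to 19011 and 35336 in MC903 and 26642 and 29860 in Control. The part of these lists in the Rbp4, Cyp26a1 and Aldh1a1 values was not tested.

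**Figure D3:**
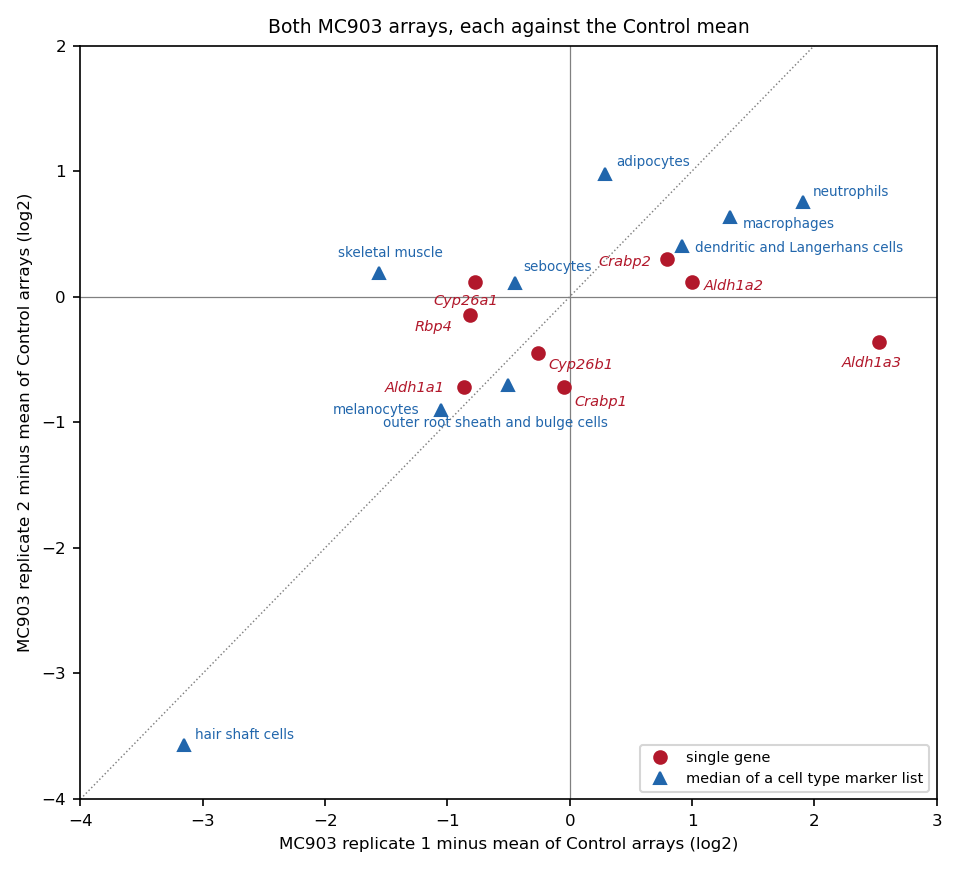
Log2 difference of each MC903 array from the mean of the Control arrays, replicate 1 across and replicate 2 upward. Circles are the 8 measured genes and triangles the medians of some of the cell type marker lists. Points on the dotted line have equal values in both arrays. Lists not drawn are activated (5.17 and 3.68), basal and suprabasal keratinocytes, dermal papilla cells, fibroblasts, T cells and endothelial cells. Aldh1a1 lies near the line at -0.86 and -0.72, whereas Aldh1a3 is at 2.53 and -0.36 and skeletal muscle at -1.56 and 0.19.

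Among the nuclear receptors of retinoic acid, the estimates lay between -0.66 and 0.05. Limma called 0 of the 6 receptor genes, against 0% of all genes, and their median difference was -0.12. Rarg, the main retinoic acid receptor of epidermis, had signals of 1381 and 1557 in MC903 and 1432 and 1398 in Control, a difference of 0.05 ± 0.16 (SE, n = 2 per group) with a 95% interval of -0.38 to 0.48. Rxra, the main retinoid X receptor of skin and partner of the vitamin D receptor, had 1636 and 1741 in MC903 and 1504 and 1793 in Control, a difference of 0.04 ± 0.17 (95% interval -0.43 to 0.51). Rxra became -0.038 when its probe sets were averaged, and Rara, at -0.05 ± 0.23, became 0.093 after quantile normalization and 0.035 after centring on array medians.

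Of the 6 receptor genes, Rxrb and Rxrg were lower in each MC903 array than in either Control array, and 0 were higher. Over all genes the shares were 28.2% lower and 21.6% higher. The differences were -0.30 ± 0.21 for Rxrb and -0.66 ± 0.31 for Rxrg (SE, n = 2 per group each), the dim Rxrg having signals of 24.3 and 51.4 in MC903 and 76.6 and 57.3 in Control. Rarb, itself a target of retinoic acid, was dim as well and differed by -0.20 ± 0.20. Vdr, the vitamin D receptor gene, had 1491 and 1314 in MC903 and 1505 and 1753 in Control, a difference of -0.21 ± 0.18. Its MC903 arrays also lay below both Control arrays, the nearest values being 1491 in MC903 and 1505 in Control. With 1 array left out Rxrb ran from -0.52 to -0.08 and Rxrg from -1.03 to -0.29, Rarb ran from -0.39 to -0.006, and Vdr ran from -0.32 to -0.10. For these 4 genes limma's adjusted p was 0.55 (Rxrb), 0.408 (Rxrg), 0.672 (Rarb) and 0.611 (Vdr).

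Genes of retinol uptake, storage and release held the largest differences of the retinoid lists. Of 16 measured, 3 were higher and 3 lower in each MC903 array than in either Control array (21.6% and 28.2% of all genes), and limma called 0, with a median of 0.14. Rbp2, a cellular retinol binding protein best known from the small intestine, had signals of 1002 and 333 in MC903, against 77.4 and 86.4 in Control. It was well above both Control arrays in each MC903 array, and its difference was 2.61 ± 0.55 (SE, n = 2 per group; limma adjusted p = 0.208), or 6.09 times the Control level on that scale. Lrat, which esterifies retinol for storage, had 589 and 139 in MC903, against 59.2 and 59.6 in Control, a difference of 2.02 ± 0.69 (limma adjusted p = 0.307) that was 1.04 without MC903 replicate 1.

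Bco1, which cleaves beta-carotene into retinal, went the other way, with 87.1 and 130 in MC903, against 241 and 311 in Control. Its difference was -1.24 ± 0.26 (SE, n = 2 per group; limma adjusted p = 0.204). Stra6, the cell surface receptor for RBP4, had 73.3 and 82.1 in MC903 and 120 and 117 in Control, a difference of -0.52 ± 0.16. Lrat, Bco1 and Stra6 were chosen after their values were seen, their mean signals being below the median of all genes (284). Lipe, the hormone-sensitive lipase that can also split retinyl esters, differed by 0.60 ± 0.22, but by 0.037 (limma adjusted p = 0.944) with its probe sets averaged and by 0.35 without MC903 replicate 2. Lrp1, a receptor for chylomicron remnants, differed by -0.25 ± 0.19, and by -0.09 without Control replicate 1.

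Retinol and retinal oxidoreductases were mixed. Of 26 measured, 8 were higher and 5 lower in each MC903 array than in either Control array (21.6% and 28.2% of all genes), limma called 0, and the median was close to 0, at -0.004. Of the 4 alcohol dehydrogenases measured, Adh7 and Adh1, which can oxidise retinol, were lower in each MC903 array, Adh7 with signals of 1097 and 799 in MC903 and 1378 and 1641 in Control and Adh1 with 3007 and 2193 in MC903 and 3578 and 3952 in Control. Their differences were -0.67 ± 0.23 (limma adjusted p = 0.307) and -0.55 ± 0.22 (limma adjusted p = 0.353), with n = 2 per group, and were -0.45 and -0.32 without MC903 replicate 2. The groups overlapped for Adh5, at -0.16 ± 0.20, and the dim Adh4, within the TrpnX range on all arrays, was higher in each MC903 array; both were named after their values were seen. Among aldo-keto reductases, Akr1b8 had 2086 and 1465 in MC903 and 837 and 926 in Control, a difference of 0.98 ± 0.23 (limma adjusted p = 0.23), and Akr1c18 differed by 1.51 ± 0.70 but by 0.58 without Control replicate 1. The aldehyde oxidases were split, Aox1 at -0.77 ± 0.28 and Aox4 at 0.49 ± 0.25. With 1 array left out they ran from -1.07 to -0.47 and from 0.26 to 0.71.

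Of the other retinoic acid hydroxylases, 2 of 3 were measured and limma called 0. Cyp2s1 had signals of 206 and 206 in MC903 and 235 and 282 in Control and differed by -0.30 (-0.18 without Control replicate 2), and Cyp2c39 was within the TrpnX range on 3 arrays. Both were named after their values were seen.

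Retinoic acid target genes did not share a direction. Of 22 measured, 7 were higher and 6 lower in each MC903 array than in either Control array (21.6% and 28.2% of all genes), and the median was 0.01. Limma called 0 with the constant prior and 1, Hbegf, with the prior that follows the signal, which called 0.923% of all genes. Hbegf, an epidermal growth factor receptor ligand that retinoic acid induces in epidermis, had signals of 1253 and 882 in MC903, against 293 and 344 in Control. Its difference was 1.68 ± 0.24 (SE, n = 2 per group; limma adjusted p = 0.159, or 0.0395 with the prior that follows the signal). Without the dimmest 50% of genes, limma with the constant prior called Hbegf too (adjusted p = 0.0358). That setting called 101 genes higher and 89 lower. Rarres2, which encodes the chemoattractant chemerin, had signals of 6323 and 3036 in MC903 and 1937 and 1874 in Control. It differed by 1.19 ± 0.39, and by 0.67 without MC903 replicate 1. Tgm2, a transglutaminase, differed by 0.95 ± 0.29.

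The homeobox genes Meis1 and Meis2 were lower, with differences of -0.58 ± 0.16 and -0.58 ± 0.28, and the chemokine receptor gene Ccr9 was higher by 0.53 ± 0.17 (SE, n = 2 per group). Meis1 was at -0.11 (limma adjusted p = 0.81) with its probe sets averaged, and Meis2 at -0.33 without MC903 replicate 1 and -0.35 without Control replicate 1. Limma's adjusted p for Rarres2, Tgm2, Meis1, Meis2 and Ccr9 lay between 0.259 and 0.408. The probe sets of Rarres2, Tgm2, Meis2 and Ccr9 carry a suffix that marks possible cross-hybridisation. Dhrs3, a retinal reductase that is a direct target of retinoic acid, overlapped between groups, with signals of 864 and 1009 in MC903 and 1051 and 964 in Control. It too was chosen after its values were seen, as a target whose groups overlap beside Hbegf.

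**Figure D4:**
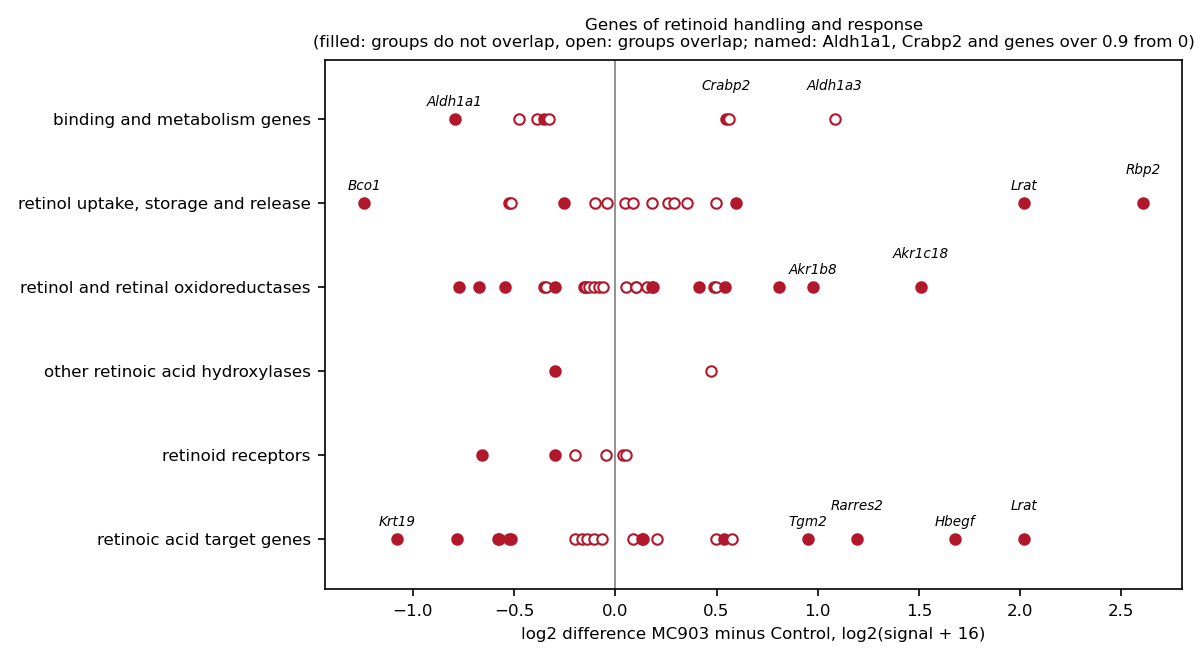
Log2(signal + 16) difference of MC903 from Control for every measured gene of the set (top row) and of 5 other retinoid lists. Each gene has 1 point in each of its lists (n = 2 arrays per group), filled where the groups do not overlap. Rbp2 at 2.61 and Lrat at 2.02 lie highest, Bco1 at -1.24 lowest, and the receptors between -0.66 and 0.05. Lrat and Stra6 stand in both the storage and the target list. Rarb stands in the receptor and target lists, and Dhrs3 in the oxidoreductase and target lists.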

How the data were processed

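Total RNA (200 ng) of treated skin had been labelled with biotin, per the labels' protocols, for 3′ arrays. The deposited intensity values of 45101 probe sets are linear, and their equal trimmed mean on each array shows that the authors had scaled them. Software and scaling method are not given in the sources used here. Probe sets were named from the platform annotation, with symbols updated by gene ID to RefSeq's GRCm38.p6 table (34741 of 34945 with 1 symbol). Array controls (64), probe sets with several symbols (932) and unlisted ones (9160) were left out. Of a gene's probe sets, the 1 with the highest mean log2 value stood for it.

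Values were log2(signal + 16), with no filter. The comparison of MC903 with Control used limma 3.58.1 under R 4.3.3 (lmFit, eBayes, constant prior variance, Benjamini-Hochberg over 18193 genes, threshold 0.05), tested on simulated data. No list was tested as a set. The rule for the members uses no measured value, but members, lists and tests were chosen with earlier results of these data known. Other genes were named by rule: all receptors and Vdr, and, of each retinoid list, up to 6 genes above the median signal whose groups did not overlap, by size of difference, except where stated. Nothing in the labels pairs samples by replicate number (correlation of deviations of the arrays numbered 1, -0.06), and no arrays held identical values. With 2 arrays per group, their number limits the precision.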

Additional observations from a re-analysis of the deposited data

How the results depend on the processing

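None of the 8 genes was called under any planned setting, and their directions held except for Aldh1a3 (-0.36 to 2.53 with 1 array left out) and Cyp26a1 (-0.77 to 0.11), both of which turned without MC903 replicate 1. Under the added fits that let the prior follow the signal and leave out 1 array, 0 to 2 of the 8 were called, the 2 being Crabp2 and Aldh1a3 without MC903 replicate 2, where 5.2% of all genes were called. Aldh1a1 ran from -0.90 to -0.68 over the settings, with adjusted p from 0.0742 to 0.626. With 1 array left out, 1 to 3 of the 8 were higher and 2 to 5 lower in all pairings, against 32.3% to 35.8% and 38.9% to 44.2% of all genes.

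Over all genes, the count called (0 higher and 0 lower) became 98 and 70 with the prior that follows the signal, 41 and 29 with an added constant of 64, 22 and 14 without the dimmest 25% of genes, 101 and 89 without the dimmest 50%, and 9 and 3 with probe sets averaged. It was 3 and 0 with quantile normalization or median centring, and 3 and 2 with probe sets chosen by mean linear signal. With the prior that follows the signal it was 7 and 8 without Control replicate 1, 5 and 0 without Control replicate 2, 134 and 93 without MC903 replicate 1, and 546 and 400 without MC903 replicate 2. These array-wise fits and the choice by linear signal were added after the data had been seen. The cause of these shifts was not tested. With the replicate block, and with any 1 array left out under the constant prior (where a single array borrows its spread from the other group), 0 genes were called.

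Among receptors near 0, Rara became 0.093 with quantile normalization, 0.035 with median centring and -0.25 to 0.16 with 1 array left out. Rarg then ran from -0.034 to 0.14 and Rxra from -0.086 to 0.16, and Rxra became -0.038 with probe sets averaged.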
